A study of Mus musculus with 11 samples.

Results

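Mitochondria keep a small circular genome (mtDNA), and the proteins that copy and transcribe it are made from nuclear genes. The 10 genes described here are regulators of that system. They were chosen by name. Ppargc1a and Ppargc1b encode coactivators, and Nrf1 and Esrra transcription factors. Tfam, Tfb1m, Tfb2m, Polrmt and Polg encode proteins that act on mtDNA or its RNA. C1qbp encodes a mitochondrial matrix protein counted with them here. All 10 were listed in both deposited tables, among 13121 genes for soleus and 12366 for quadriceps, and all 10 passed the filter on low values in both. The rule names genes and uses no threshold on a measured value, but the members were chosen with earlier results of these data known.

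RNA sequencing had been done on soleus, a hindlimb muscle of posture with many slow, oxidative fibres, and on quadriceps, a thigh muscle of mainly fast fibres, from mice aged 2.5 months. Myc-labelled mice had an inducible system in which doxycycline switches on Myc, a transcription factor. They received the drug overnight, and tissue was taken 12 hours after its withdrawal (4 soleus and 2 quadriceps libraries). Controls were age-matched (3 soleus and 2 quadriceps libraries). The labels do not give the controls' genotype, whether they received doxycycline, or the promoter that drives the system, so an effect of Myc and an effect of the drug cannot be told apart here. Nothing states that the libraries of a group came from separate animals, and p-values measure the spread between these libraries.

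The coactivators encoded by Ppargc1a and Ppargc1b (PGC-1alpha and PGC-1beta) bind transcription factors such as nuclear respiratory factor 1 (Nrf1) and estrogen-related receptor alpha (Esrra), and together these raise the transcription of nuclear genes for mitochondrial proteins. In muscle, Ppargc1a is known for its response to endurance exercise. Inside the organelle, TFAM packages mtDNA and opens its promoters, TFB2M joins the mitochondrial RNA polymerase POLRMT to start transcription, TFB1M methylates mitochondrial ribosomal RNA, and POLG, the catalytic subunit of DNA polymerase gamma, copies the genome. C1QBP is a matrix protein known for its part in mitochondrial translation and is counted with these regulators here.

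The windows around the transcription start of 5 members are printed because they cover the members that rose most in soleus, the polymerase of the same step, and Ppargc1a, the coactivator set against them. Each runs from 250 bases before the start to 50 after it, 5′ to 3′ on the gene's strand, from RefSeq on GRCm38.p6. Capitals mark matches to any of the 7 motifs searched. All 5 genes lie on the minus strand, with C1qbp at chr11:70982977-70983276, Tfb2m at chr1:179546227-179546526, Tfam at chr10:71237995-71238294, Polrmt at chr10:79746532-79746831 and Ppargc1a at chr5:51567676-51567975.
C1qbp: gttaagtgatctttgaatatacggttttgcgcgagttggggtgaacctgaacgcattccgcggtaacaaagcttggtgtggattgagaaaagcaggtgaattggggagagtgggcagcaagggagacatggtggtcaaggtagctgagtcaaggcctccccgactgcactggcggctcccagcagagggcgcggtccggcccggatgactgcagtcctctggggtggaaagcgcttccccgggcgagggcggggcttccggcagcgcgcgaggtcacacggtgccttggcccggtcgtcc
Tfb2m: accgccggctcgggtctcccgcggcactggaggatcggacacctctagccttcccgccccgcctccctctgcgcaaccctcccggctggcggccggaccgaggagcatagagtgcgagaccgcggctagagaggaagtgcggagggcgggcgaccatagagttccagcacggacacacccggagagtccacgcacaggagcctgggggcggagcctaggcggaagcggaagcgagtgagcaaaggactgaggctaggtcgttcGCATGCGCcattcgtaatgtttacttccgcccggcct
Tfam: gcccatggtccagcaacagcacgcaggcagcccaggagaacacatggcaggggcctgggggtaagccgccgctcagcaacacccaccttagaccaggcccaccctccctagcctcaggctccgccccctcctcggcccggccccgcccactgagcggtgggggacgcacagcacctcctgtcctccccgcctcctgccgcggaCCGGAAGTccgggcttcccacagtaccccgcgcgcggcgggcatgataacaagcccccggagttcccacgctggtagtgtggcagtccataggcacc
Polrmt: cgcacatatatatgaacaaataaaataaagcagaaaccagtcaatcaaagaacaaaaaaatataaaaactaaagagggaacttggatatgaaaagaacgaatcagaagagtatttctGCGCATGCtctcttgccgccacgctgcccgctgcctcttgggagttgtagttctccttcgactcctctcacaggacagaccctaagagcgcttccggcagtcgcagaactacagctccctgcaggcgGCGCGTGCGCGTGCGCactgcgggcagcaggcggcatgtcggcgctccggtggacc
Ppargc1a: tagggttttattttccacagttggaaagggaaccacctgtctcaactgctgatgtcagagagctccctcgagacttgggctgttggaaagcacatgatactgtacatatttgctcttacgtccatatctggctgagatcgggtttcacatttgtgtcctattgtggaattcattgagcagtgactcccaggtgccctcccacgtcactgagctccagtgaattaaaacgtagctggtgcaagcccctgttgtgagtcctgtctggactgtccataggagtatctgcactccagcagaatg

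Windows were found for 9 of the 10 members, all but Ppargc1b. These 9 members had 10 windows, and a match in any window counted for the gene, whereas the shares set beside them are of windows. The E-box CACGTG, the site best known for Myc and its partner Max, was in none of the 9, and in 10% of the 12963 windows of genes tested in soleus. The variant E-box CACGCG was in 5 (Esrra, Nrf1, Polg, Polrmt and Tfb1m), against 16.9% of those windows. CCGGAAGT, a site of GABP and other ETS factors, was in Tfam and Polg, against 7.57%. The full palindrome of nuclear respiratory factor 1 and TCAAGGTCA, a site of estrogen-related receptors, were in none, against 1.94% and 0.262%. A shorter form of that palindrome, GCATGCGC, added after the windows had been seen, was in Esrra, Polrmt and Tfb2m, against 4.86%. A variant of the full palindrome with GT at its centre, added likewise, was in Polrmt, against 2.99%. Both strands were searched. The Polrmt matches to CACGCG (read on the other strand) lie inside its matches to that variant. The windows also differ in base content: that of Ppargc1a holds 48.7% G or C and 5 CpG pairs, and that of Tfb2m holds 67.3% and 32, beside a median of 60.7% and 20 over the tested genes. A match or its lack describes these letters only.

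Depth, estimated from the values, was 11.1 to 14.9 M reads per soleus library and 14.2 to 18.4 M per quadriceps library. The Myc row itself averaged 28.4 ± 1.98 in Myc-labelled soleus (SD, n = 4) and 37.5 ± 14.6 in control soleus (SD, n = 3), and 59.97 ± 37.4 in Myc-labelled quadriceps and 84.7 ± 41.0 in control quadriceps (SD, n = 2 each). It did not identify the Myc-labelled libraries, so every direction here rests on the labels. All 9 slow-fibre markers were detected in soleus, with summed levels of 503290 to 642770 in Myc-labelled and 533410 to 620150 in control libraries. In quadriceps the slow-fibre sum was 1985 and 3473 in the Myc-labelled libraries, against 26292 and 190660 in the controls. Quadriceps thus differed in slow-fibre RNA between the labels, and the controls differed among themselves. In soleus the sum of 8 tendon markers was 7289, 6467, 2156 and 3462 in Myc-labelled replicates 1 to 4, against 8190, 9024 and 7415 in controls, and that of 6 fibroblast markers was lowest in Myc-labelled replicates 3 and 4. The fast-fibre sum ran from 451320 to 712880 in Myc-labelled soleus and from 684540 to 721840 in control soleus. Of the 12 fast-fibre markers 1 was called in soleus, and their median log2 change there was -0.35. The sum of 6 general skeletal muscle markers was lower in every Myc-labelled soleus library, at 950700 to 1048300, than in the controls, at 1101800 to 1175800, and none of the 6 was called alone. No listed marker in the tables was at 0 in every library. Ucp1, of the brown fat list, was in neither table, and Sox10, of the Schwann cell list, was not in that of quadriceps. The part of these markers in the results was not tested, and in whole muscle a change in cell make-up and a change in RNA per cell cannot be told apart.

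In soleus, 3 members that work inside the mitochondrion rose, and neither coactivator passed the test. C1qbp was 2.37-fold higher in Myc-labelled than in control muscle, Tfb2m 1.43-fold and Tfam 1.38-fold. These 3 of 10 passed the test (limma, Benjamini-Hochberg adjusted p under 0.05 over 12745 genes), all of them higher, and none was lower. Over all genes tested 9.29% passed, made up of 7.06% higher and 2.23% lower. The median log2 change of the 10 members was 0.34, beside -0.03 over all genes tested. In 5 members (Tfam, Tfb2m, Polrmt, Polg and C1qbp) every Myc-labelled library lay above every control library, as did 12.7% of all genes, and in no member did the groups separate the other way, as 8.35% did (21.0% in either direction).

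**Figure D1:**
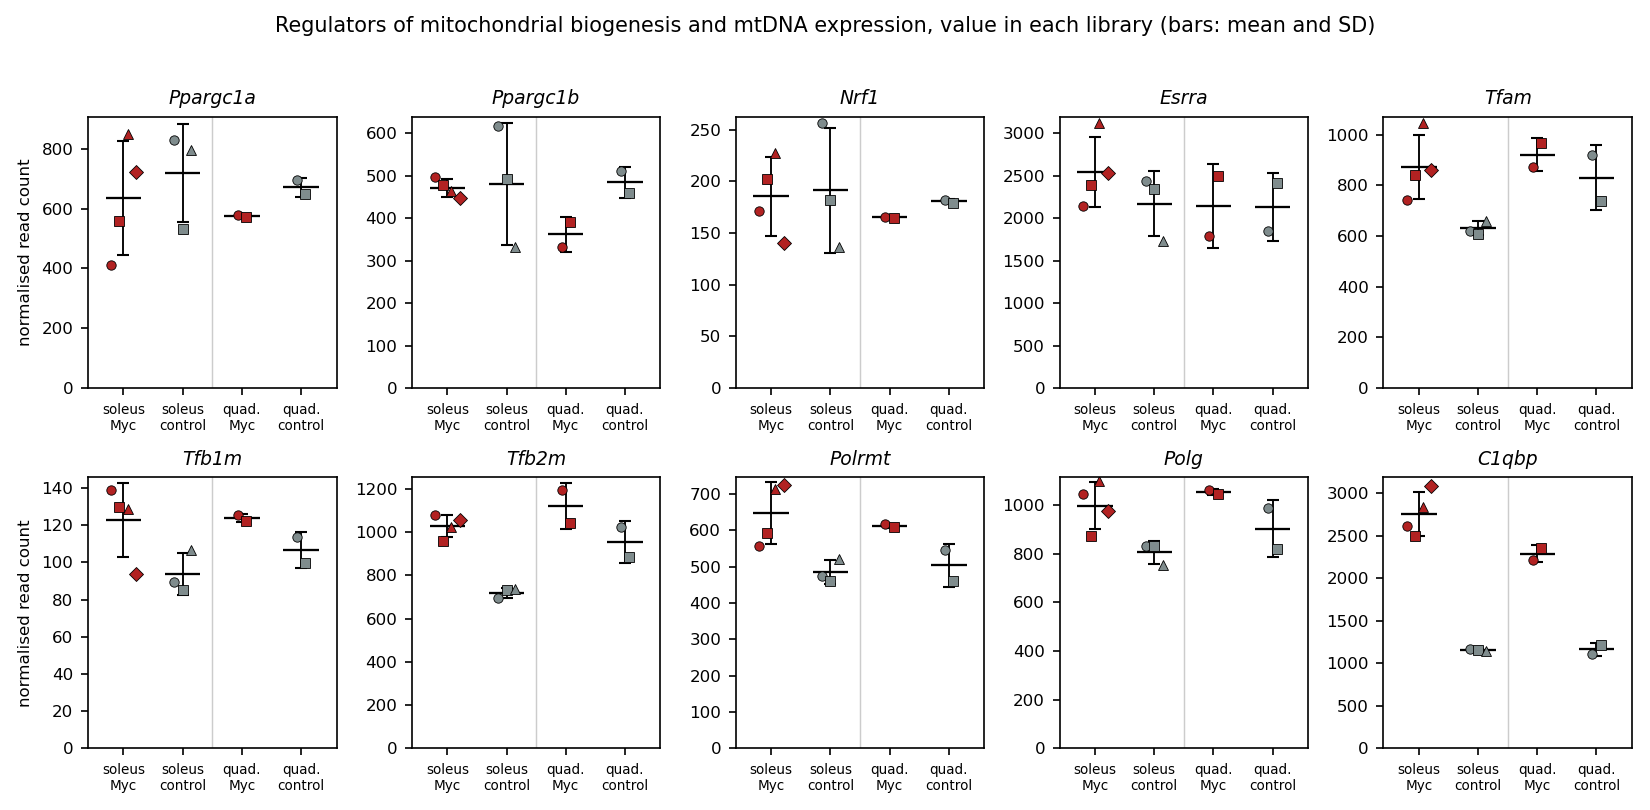
Normalised read count (y axes, from 0) of each of the 10 regulators in every library of the 4 groups. Red symbols are Myc-labelled and grey symbols control libraries, shapes stand for replicate numbers (circle 1, square 2, triangle 3, diamond 4), and bars give the mean and SD; the C1qbp symbols of Myc-labelled muscle lie between 2217 and 3091 and those of control muscle between 1112 and 1220.

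In soleus, Ppargc1a varied widely among the libraries of both labels, and Ppargc1b among the controls only. Ppargc1a had 413, 559, 851 and 724 normalised reads in the 4 Myc-labelled soleus libraries, against 831, 531 and 797 in controls. The groups overlapped, and the log2 change was -0.20 (SE 0.27; limma, adjusted p = 0.73), with a 95% interval of -0.82 to 0.42. Ppargc1b had 498, 479, 464 and 448 in Myc-labelled libraries, against 618, 493 and 332 in controls. All 4 Myc-labelled values sat inside the control range, whose coefficient of variation was 29.8% against 4.52% in the Myc-labelled libraries. The log2 change of Ppargc1b was 0.02, with an interval of -0.34 to 0.38.

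The DNA-binding factors that the coactivators work through did not pass the test either. Nrf1, which binds promoters of respiratory genes, had 171, 203, 228 and 141 normalised reads in Myc-labelled soleus, against 256, 182 and 136 in controls, a log2 change of -0.02 with an interval of -0.51 to 0.47. The sign of that estimate turned under 6 of 18 alternatives, so it has no settled direction. Esrra, an orphan nuclear receptor for genes of oxidative metabolism, had 2143, 2389, 3121 and 2532 in Myc-labelled libraries, against 2435, 2347 and 1735 in controls. Its highest value was Myc-labelled replicate 3 and its lowest control replicate 3, and the log2 change was 0.23 (SE 0.14; limma, adjusted p = 0.38). Exons of Esrra share 73 bases with Trmt112 on the other strand. The strand setting of the libraries is not given in the sources used here, so reads there cannot be assigned to one gene.

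Of the mtDNA promoter complex, Tfb2m and Tfam rose and Polrmt missed the threshold. Tfb2m, the initiation factor, had 1079, 959, 1025 and 1055 normalised reads in Myc-labelled soleus, against 694, 731 and 736 in controls. The lowest Myc-labelled library exceeded the highest control, and the log2 change was 0.51 (SE 0.10; limma, adjusted p = 0.0029). Tfam, which coats and bends mtDNA, had 744, 839.6, 1048 and 862 in Myc-labelled libraries, against 621, 608 and 661 in controls. All 4 values were above the controls, with a log2 change of 0.46 (SE 0.12; limma, adjusted p = 0.024). Its call depended on single libraries: the limma adjusted p was 0.070 without Myc-labelled replicate 3, 0.059 without replicate 4, 0.077 without control replicate 1 and 0.097 without control replicate 2.

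Polrmt, the RNA polymerase of this complex, had 557, 592, 715 and 724 normalised reads in Myc-labelled soleus, against 474, 461 and 522 in controls. The groups did not overlap, and the difference was not called, with a log2 change of 0.41 (SE 0.13; limma, adjusted p = 0.058). It passed with equal library totals (0.025), with TMM scaling (0.044) and without Myc-labelled replicate 1 (0.037), and the adjusted p of limma ranged from 0.025 to 0.39 over 18 alternatives. Tfb1m, the rRNA methyltransferase related to Tfb2m, had 139, 129.7, 129 and 94.0 in Myc-labelled libraries, against 89.2, 85.4 and 107 in controls. Replicate 4 of the Myc-labelled group fell inside the control range, and the log2 change of Tfb1m was 0.38 (SE 0.23; limma, adjusted p = 0.37). Exons of Tfb1m share 142 bases with Tiam2 on the other strand, with the same limit as for Esrra.

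Polg, the mtDNA polymerase, had 1045, 871, 1097 and 975 normalised reads in Myc-labelled soleus, against 833, 832 and 751 in controls. Here too the groups did not overlap, by a margin of 871 over 833, and the difference was not called (log2 change 0.30, SE 0.11; limma, adjusted p = 0.10). With equal library totals it was called, at an adjusted p of 0.042 in limma. Its exons share 921 bases with Fanci on the other strand, and Fanci was not in either table.

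C1qbp stood apart from the other members. It had 2614, 2502, 2836 and 3091 normalised reads in Myc-labelled soleus, against 1173, 1156 and 1149 in controls, with every Myc-labelled library far above every control. The log2 change was 1.25 (SE 0.098, 95% interval 1.04 to 1.45; limma, adjusted p = 5.7e-07), and its p ranked 16th of the genes tested. The control libraries were close together, with a coefficient of variation of 1.07%. The ratio of C1qbp to Tfam within a library was 3.51, 2.98, 2.71 and 3.59 in Myc-labelled soleus, against 1.89, 1.90 and 1.74 in controls. C1qbp and Tfb2m were called in each of the 18 alternatives run, with limma adjusted p of 1.8e-07 to 9.9e-05 and 0.0014 to 0.037. Without both Myc-labelled replicates 3 and 4, which had the lowest tendon sums, both stayed called and Tfam did not (limma, adjusted p = 0.19). Myc-labelled replicates 1 and 2, with tendon sums of 7289 and 6467, still lay below the lowest control at 7415. Leaving those libraries out therefore did not even out tendon content, whose part was not tested.

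**Figure D2:**
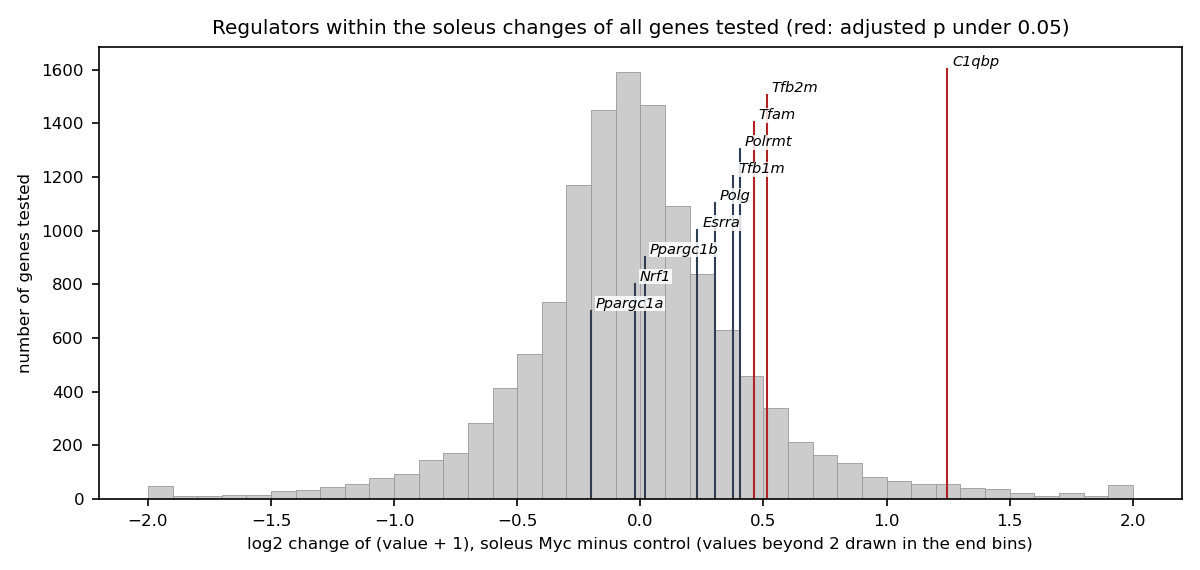
Histogram of the log2 change between Myc-labelled and control soleus (x axis, on log2(value + 1)) over the 12745 genes tested, with the number of genes on the y axis and a line for each regulator. Lines differ in height for legibility only; red lines mark C1qbp (1.25), Tfb2m (0.51) and Tfam (0.46), which passed the test, and the coactivators Ppargc1a and Ppargc1b lie near the centre at -0.20 and 0.02.

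Levels can be ordered between genes only per length, as normalised reads per kilobase of merged exon (GENCODE M21). In Myc-labelled soleus the order was C1qbp (977, range 885 to 1094), Esrra (580, 488 to 711), Tfb2m (367), Tfam (197), Polrmt (138), Ppargc1b (118), Ppargc1a (96.6), Polg (92.8), Tfb1m (34.1) and Nrf1 (18.1). The ranges of Polrmt, Ppargc1b, Ppargc1a and Polg overlapped with their neighbours in that order, and those of the others did not. In control soleus Esrra came first with 495 per kilobase (395.5 to 555), and C1qbp followed with 410 (407 to 415), inside the Esrra range. In control quadriceps Esrra had 486 and C1qbp 413 per kilobase, again with overlapping ranges, whereas in Myc-labelled quadriceps C1qbp had 810 and Esrra 489 without overlap. The lowest level in all 4 groups was that of Nrf1.

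In quadriceps, C1qbp again had the largest change of the 10 members, but no member passed the test over all genes. C1qbp had 2217 and 2361 normalised reads in the Myc-labelled libraries, against 1112 and 1220 in the controls. Both Myc-labelled values were above both controls, with a log2 change of 0.97 (SE 0.17, 95% interval 0.59 to 1.36), a p ranked 23rd and a limma adjusted p of 0.23. Of the 10 members 0 were called by limma and 0 by limma-voom, as was 0.00815% of all genes by limma, and 2 had an unadjusted p under 0.05, beside 6.21% of all genes. With 1 spread estimated over all 11 libraries C1qbp was called (limma, adjusted p = 0.0037), and over the 14 alternatives its limma adjusted p ranged from 0.0037 to 0.999.

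The second member with an unadjusted p under 0.05 was Ppargc1b, in the other direction. It had 333 and 392 normalised reads in Myc-labelled quadriceps, against 511 and 459.6 in controls, a log2 change of -0.42 (SE 0.18, 95% interval -0.84 to -0.01; limma, unadjusted p = 0.046, adjusted p = 0.80). Ppargc1a had 578 and 572 in Myc-labelled quadriceps, against 695 and 649.95 in controls, a log2 change of -0.22 with an interval of -0.59 to 0.14. Nrf1 had 166 and 165 in Myc-labelled libraries, against 182 and 179.5 in controls. In these 3 members both Myc-labelled libraries lay below both controls, as in 16.9% of all genes, and the slow-fibre sum was lower in the same libraries. Without control replicate 2, the library with the highest slow-fibre sum, the log2 changes were 1.04 for C1qbp, -0.50 for Ppargc1b, -0.27 for Ppargc1a and -0.14 for Nrf1. Control replicate 1, which stayed in, had a slow-fibre sum of 26292, against 1985 and 3473 in the Myc-labelled libraries. The slow-fibre difference between the labels thus remained, and its part was not tested.

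Tfb2m had 1196 and 1044 normalised reads in Myc-labelled quadriceps, against 1024 and 884 in controls, and Tfam 874 and 967 against 920.3 and 739. Polrmt had 617 and 609 in Myc-labelled libraries, against 545 and 462 in controls. For Tfb1m, Tfb2m, Polrmt, Polg and C1qbp both Myc-labelled values were above both controls, as in 18.3% of all genes (35.2% separated in either direction), while for Tfam they overlapped. The log2 changes of Tfam, Tfb1m, Tfb2m, Polrmt and Polg ran from 0.16 to 0.29, none of them called. Without control replicate 2 they were smaller by more than 1.5 times each, at -0.00124 for Tfam, 0.12 for Tfb1m, 0.13 for Tfb2m, 0.17 for Polrmt and 0.10 for Polg, and without control replicate 1 all 5 were larger, at 0.31 to 0.41. Esrra had 1795 and 2499 in Myc-labelled quadriceps, against 1846 and 2418 in controls, and within each label the 2 libraries differed more than the labels did.

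**Figure D3:**
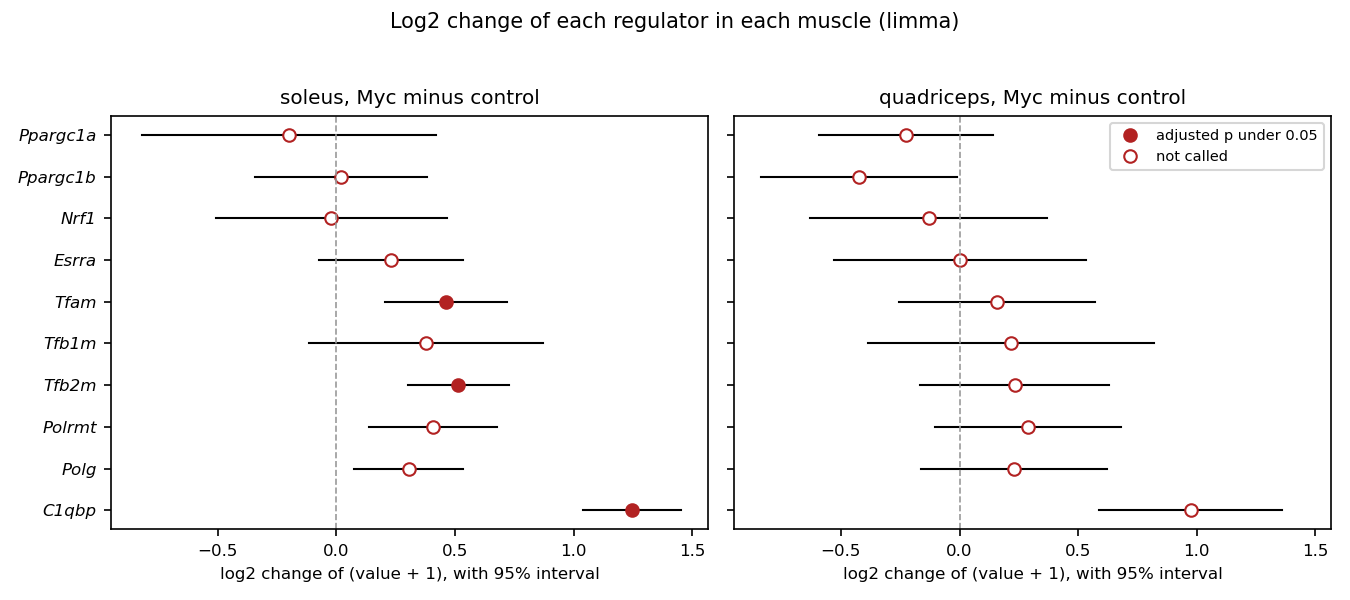
Log2 change (x axis, on log2(value + 1)) of each regulator between Myc-labelled and control muscle, with its 95% interval from limma, in soleus at left and quadriceps at right. Filled symbols passed an adjusted p of 0.05: Tfam, Tfb2m and C1qbp in soleus and none in quadriceps, where the C1qbp estimate of 0.97 lies farthest from 0.

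The difference between the 2 muscles was tested as the soleus effect minus the quadriceps effect, over 11971 genes. Of the 10 members 0 were called, as 0% of all genes were, and 0 had an unadjusted p under 0.05, beside 3.18% of all genes; all adjusted p of limma and limma-voom were above 0.05. All 10 differences were positive as fitted, with a median of 0.19, beside 0.03 over all genes, but 5 of them turned sign under some alternative. Each difference contains the quadriceps change, and the quadriceps libraries differed in slow-fibre RNA between the labels, whose part was not tested. The largest difference was that of Ppargc1b, at 0.44 (95% interval -0.16 to 1.04), from 0.02 in soleus and -0.42 in quadriceps. Next came Tfam at 0.30 (-0.14 to 0.75), Tfb2m at 0.28 (-0.08 to 0.64) and C1qbp at 0.27 (-0.08 to 0.62). These intervals include both no difference and differences as large as the soleus effect of Tfam. A call in soleus without a call in quadriceps does not by itself show that the muscles differ.

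Genes of the same pathway were sorted into 7 lists by role. Over their union, 27 of 143 genes tested in soleus passed the test, 22 higher and 5 lower, and the median log2 change was 0.06, beside -0.03 over all genes. Over all genes tested 9.29% passed, 7.06% higher and 2.23% lower, and a list's count near these shares is no result about the list. Without both Myc-labelled soleus replicates 3 and 4, 14 pathway genes were called, 11 higher and 3 lower, while calls over all genes went down as well, to 624 of 12603, against 1184 of 12745 with all libraries. In quadriceps 0 of 142 were called by limma and 0 by limma-voom.

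Among 30 partners of the coactivators 2 rose and 2 fell, and the list's median log2 change was -0.11. Pprc1, the third member of the PGC-1 family, had 739.8, 772, 858 and 723 normalised reads in Myc-labelled soleus, against 406, 332 and 296 in controls. That is a log2 change of 1.17 (SE 0.13; limma, adjusted p = 1.7e-05), in the family whose 2 other genes, Ppargc1a and Ppargc1b, did not pass the test. The ratio of Pprc1 to Ppargc1a was 1.79, 1.38, 1.01 and 0.999 in Myc-labelled soleus, against 0.489, 0.625 and 0.371 in controls, and 0.886 and 0.888 in Myc-labelled quadriceps, against 0.606 and 0.469 in controls. Pprc1 itself was not called in quadriceps, with a log2 change of 0.51 (limma, adjusted p = 0.75). Without quadriceps control replicate 2 that change was 0.28. Kat2a, the acetyltransferase known as GCN5 that modifies PGC-1alpha and histones, rose in soleus to 640.1 ± 130 in Myc-labelled muscle, against 329.6 ± 59.6 in controls (SD, n = 4 and 3; log2 change 0.95). In quadriceps Kat2a had 541 and 481 in Myc-labelled libraries, against 237 and 250.2 in controls, a log2 change of 1.06 that was not called. Tfeb, a factor for lysosome and autophagy genes, fell by 0.57 on the log2 scale, and without control replicate 2 its adjusted p was 0.061 in limma. Nrip1, a corepressor of nuclear receptors, fell by 0.72, and its call was lost in 6 of 18 alternatives; it was named after its values were seen.

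Of 17 genes of mtDNA replication and nucleotide supply 4 rose and none fell (median log2 change 0.33). Twnk, the helicase that unwinds mtDNA ahead of Polg, had 1095, 1205, 1458 and 1194 normalised reads in Myc-labelled soleus, against 647, 602 and 504 in controls. Its log2 change was 1.08 (SE 0.12; limma, adjusted p = 2.0e-05), against 0.30 for Polg itself. Atad3a, a membrane ATPase linked to mtDNA nucleoids, rose by 1.16 and Lig3, the mitochondrial DNA ligase, by 0.57. Rnaseh1, which removes RNA primers, rose by 1.23 and lost its call without control replicate 3 and without both Myc-labelled replicates 3 and 4; Lig3 lost it only in the second case. In quadriceps Twnk had 758 and 894 in Myc-labelled libraries, against 559.8 and 571 in controls, and was not called.

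Of 31 genes of mtDNA transcription and RNA handling 11 rose and 1 fell in soleus, with a median log2 change of 0.37. The nucleases and the methyltransferase subunit that free tRNAs from the long mitochondrial transcripts were among those that rose. Elac2, which cuts the tRNA 3′ end, had 1074, 1107, 1139.9 and 1279.6 normalised reads in Myc-labelled soleus, against 493, 450.1 and 536 in controls, a log2 change of 1.22 (SE 0.11; limma, adjusted p = 2.1e-06). Prorp, the catalytic subunit of mitochondrial RNase P that cuts the 5′ end, rose by 1.17 and its partner Trmt10c by 0.79. The third subunit, Hsd17b10, averaged 989 ± 128 in Myc-labelled and 880.1 ± 44.6 in control soleus (SD, n = 4 and 3) and was not called (log2 change 0.16). Lrpprc, an mRNA-stabilising protein, rose by 0.37 but lost its call in 7 of 18 alternatives. Mterf2, of the mitochondrial termination factor family, was the 1 gene that fell, by 0.74, with its call lost in 3 alternatives, while Mterf4 of the same family rose by 1.27 and lost its call without both Myc-labelled replicates 3 and 4 (limma adjusted p = 0.10). Tefm, the elongation factor of Polrmt, was not called in soleus (0.41) or quadriceps (0.62).

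Of 17 mitochondrial translation factors none was called in soleus by limma, and the list's median log2 change was 0.23. The smallest p was that of Guf1, a ribosome-bound GTPase, with 482 ± 52.3 in Myc-labelled and 368 ± 31.8 in control soleus (SD, n = 4 and 3; limma, adjusted p = 0.084). Tufm, the mitochondrial elongation factor Tu, had a log2 change of 0.29. Of 20 markers of mitochondrial content 5 rose and none fell, but the median was -0.01. The 5 were parts of the outer membrane import complex and the inner membrane scaffold. They were Tomm70a (log2 change 0.93), Tomm40 (0.82), Phb (0.49), Phb2 (0.48) and Tomm20 (0.42), the last with overlapping groups. Tomm20 lost its call in 8 of 18 alternatives (limma adjusted p up to 0.24), and Phb lost it without both Myc-labelled replicates 3 and 4 (0.10). Enzymes of the citrate cycle and subunits of the respiratory chain were not among them: citrate synthase (Cs) averaged 19563 ± 1928 in Myc-labelled and 20622 ± 2003 in control soleus, and Cox4i1 12355 ± 1043 and 13430 ± 1294 (SD, n = 4 and 3). Their log2 changes were -0.08 and -0.12, and both were picked after their values were seen.

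Of 16 genes of mitochondrial dynamics and turnover 1 fell, the mitophagy receptor Bnip3l, by 0.43, and its call was lost in 6 of 18 alternatives. Of 14 genes known from muscle studies to follow Ppargc1a 1 passed the test: Slc2a4, the insulin-responsive glucose transporter GLUT4, fell by 0.43 (SE 0.10; limma, adjusted p = 0.0099). Slc2a4 had 6782, 7163, 8774 and 7229 normalised reads in Myc-labelled soleus, against 10233, 9917 and 10056 in controls, with no overlap. It had 7705 and 8598 in Myc-labelled quadriceps, against 11229 and 10503 in controls, also without overlap but not called. The median of that list was -0.11 in soleus and -0.08 in quadriceps.

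**Figure D4:**
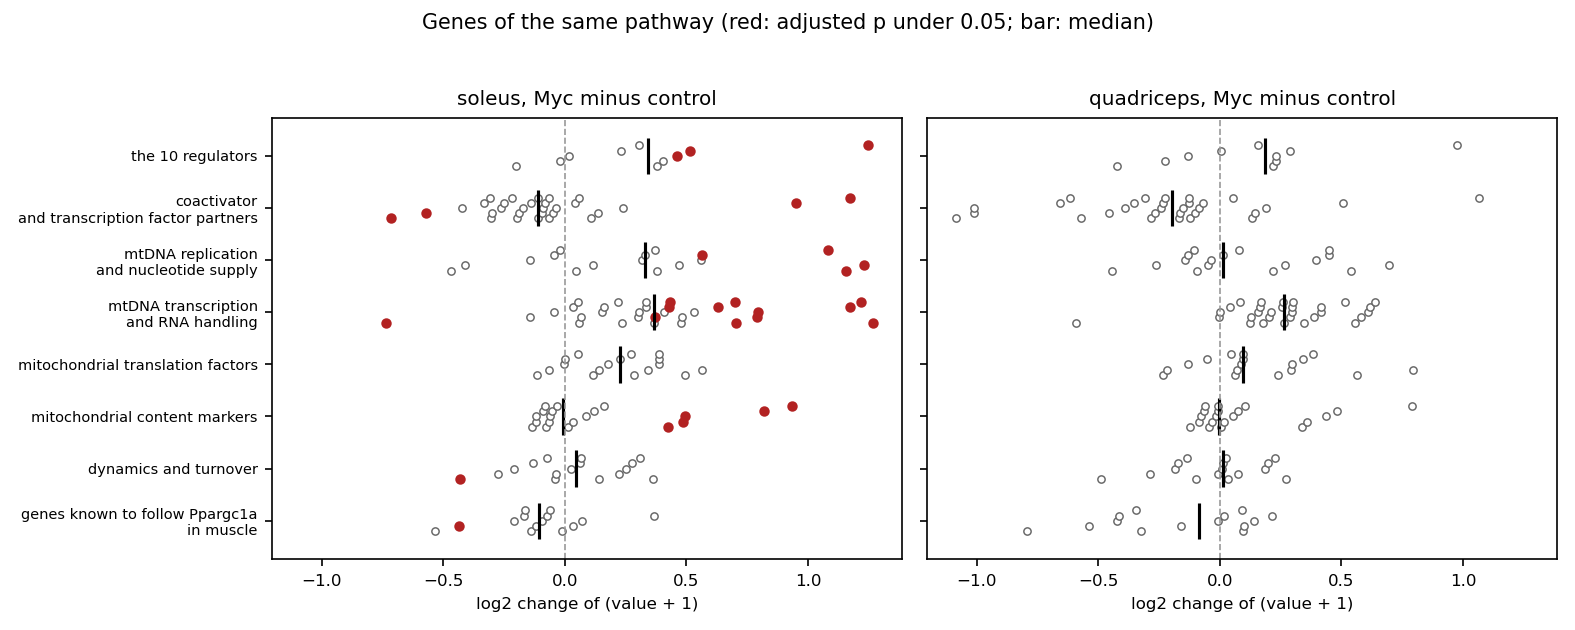
Log2 change (x axis, on log2(value + 1)) of the 10 regulators and of the genes in 7 pathway lists between Myc-labelled and control muscle, soleus at left and quadriceps at right. Each symbol is a gene, filled red where the adjusted p passed 0.05, and bars mark list medians; in soleus the medians of the replication and RNA handling lists (0.33 and 0.37) lie right of that of the coactivator partners (-0.11).

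Likeness to other genes was measured by Pearson's r of log2(value + 1) over the 11 libraries after each muscle's mean was subtracted. The points share libraries and their scaling, and for members that differ between labels r contains that difference. Each pair was picked as the highest r over all genes tested in both muscles, a choice that favours high values for any member. The 2 genes most like C1qbp were Eef1e1 and Rpf2 (r = 0.99 each), those most like Tfb2m were Nop58 and Dars (0.98 each), and those most like Tfam were Wdr5 and Entpd6 (0.96 each). Those of Polrmt were Xpnpep3 and Tmed2 (0.98 each), of Polg Syvn1 (0.97) and Eef2kmt (0.95), and of Tfb1m Ubr1 (0.94) and Dus2 (0.93). Those of Ppargc1a were Calcoco1 (0.94) and Acacb (0.92), of Ppargc1b Caskin2 (0.96) and Socs3 (0.93), and of Esrra Ciao3 (0.93) and Hint2 (0.90). Among the genes named here as most like a member, none was itself a member.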

How the data were processed

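Each deposited table gives, per gene and library, a signal that the authors had normalised. From the values, it is reads divided by a library factor: a read counts 0.831 to 1.17, and below 300 reads 91.1% to 93.5% of entries lie within 0.02 of a whole read. DESeq2, Partek and STAR 2.7.8a appear in the submitters' processing notes without roles, beside mm10 and mm39, so coordinates are given only for RefSeq windows. Values are called normalised reads; the tables were scaled separately. Since they are not counts, limma 3.58.1 (R 4.3.3, statmod 1.5.0) was run on log2(value + 1), with trend and robust moderation. The added 1 understates changes of low genes. A gene entered a fit with values of 10 or more in at least 3 libraries for soleus, or 2 for quadriceps. The muscles had separate fits over all genes, and their difference came from 1 fit over 11 libraries. The fit was tested on simulated data. Values after ± are SD.

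The members and lists were chosen with earlier results of these data known. Named list genes are up to 3 with the smallest p in soleus and 1 in quadriceps per list; others were picked after their values were seen. Replicates differed beyond counting noise, so each library counted once. The check of shared deviations did not settle whether replicate numbers pair libraries, and no block was used. Whether both muscles of a replicate number came from the same mouse is not stated. The test of the difference between muscles treated all libraries as independent. Alternatives were other scalings, pseudocounts, filters and moderation, limma-voom on estimated reads, 1 joint fit, the block and leaving libraries out. Late-life exercise samples and mitochondrially encoded transcripts were not analysed here, and the genes most like Nrf1 are not reported here.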

Additional observations from a re-analysis of the deposited data

How the results depend on the processing

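C1qbp and Tfb2m kept their soleus calls under each of 18 alternatives. The number of members called in soleus was 5 with equal library totals and 2 to 4 when 1 library was left out. The pathway lists held 14 calls in soleus without both Myc-labelled replicates 3 and 4, and 19 to 25 when 1 library was left out. In quadriceps 1 fit over all 11 libraries gave 1 member and 2 pathway calls, and leaving out 1 library gave 0 members and 0 to 2 pathway calls, the 2 without Myc-labelled replicate 2; the alternatives for these quadriceps lists were chosen after seeing the data. The members holding a planned motif fell to 3 within 100 bases before the start, against 6 in the whole window, by construction.

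Within a muscle, the replicate block was a fixed term for replicate number. Myc-labelled soleus replicate 4 has no control of its number, so it added nothing to that estimate. This block left 3 members called in soleus and gave 31 pathway calls, and it gave 0 calls of members in quadriceps. For the difference between muscles, the block was instead an estimated correlation between same-numbered soleus and quadriceps libraries of the same label. It gave 0 calls of members. Same-numbered soleus libraries had correlated deviations of 0.001, 0.08 and 0.14, and 2 of 3 Myc-labelled libraries correlated best with their own number. Between the muscles, same-numbered libraries had -0.03 and 0.10 for Myc-labelled and 0.10 and 0.16 for control muscle. In quadriceps both numbers gave 0.14 by construction, because with 2 libraries a label the deviations mirror each other. The check therefore cannot decide on pairing in quadriceps.

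Signs turned only for estimates that were not called. For Nrf1 in soleus the log2 change was 0.0247 with equal totals, 0.10 with the block, 0.00739 without both replicates 3 and 4 and -0.24 to 0.21 leaving out 1 library. For Bnip3 it was 0.00915 with equal totals and -0.10 to 0.0555, and for Ppargc1b -0.00920 with limma-voom and -0.22 to 0.22. Leaving out 1 quadriceps library gave -0.24 to 0.24 for Esrra, -0.00124 to 0.32 for Tfam, -0.0298 to 0.12 for Guf1, -0.21 to 0.0250 for Lig3 and -0.44 to 0.0730 for Bnip3l. The difference between muscles for Ppargc1a was -0.00266 with the block, -0.33 without both replicates 3 and 4 (chosen after seeing the data) and -0.18 to 0.22 leaving out 1 library. It was -0.00174 to 0.24 for Polrmt (-0.0453 without both), -0.0592 to 0.21 for Polg, -0.11 to 0.34 for Nrf1 and -0.0109 to 0.47 for Esrra. The cause of these changes was not tested. Of the other alternatives for single genes 1394 kept direction and side of the threshold, 14 gained a call and 62 lost one. Quadriceps had 2 libraries a label, which limits what it can show.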
